A study of Arabidopsis thaliana with 21 samples.

Results

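EXPA4 and EXPA15, which encode alpha-expansins, and XTH18 and XTH19, which encode xyloglucan endotransglucosylase/hydrolases, were followed over 6 treatments of Arabidopsis seedlings. Each gene was represented by 1 probe set of the ATH1 array that the annotation pairs with that gene alone: 267590_at for EXPA4 (AT2G39700), 266770_at for EXPA15 (AT2G03090), 253628_at for XTH18 (AT4G30280) and 253608_at for XTH19 (AT4G30290). These are 4 of the 22746 probe sets tested, and 0 probe sets paired with several genes included a member. The study asked which genes 2 compounds, known in the labels only as A and B, change in the presence and absence of the natural auxin indole-3-acetic acid (IAA).

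Every group shared the same background: Col-0 seedlings, the wild-type reference accession, grown in the light in liquid culture on 0.5 MS medium with 1.5% sucrose, taken at 7 days and treated for 1 h. The groups were 5 µM IAA together with 10 µM A (3 arrays), 5 µM IAA together with 10 µM B (3 arrays), 5 µM IAA alone (4 arrays), 10 µM A alone (4 arrays), 10 µM B alone (3 arrays) and the solvent DMSO (4 arrays). Whole seedlings were extracted, so fewer cells of a type and less RNA per cell cannot be told apart. Separate cultures are not stated for the arrays within a group, and the p-values therefore measure the spread between arrays, which may be technical. The number of arrays limits the precision.

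Growing plant cells enlarge when the wall yields to turgor. Expansins loosen the wall at acidic pH, without cutting polymers, by weakening contacts between cellulose and the matrix. Xyloglucan endotransglucosylase/hydrolases (XTH enzymes) cut the xyloglucan chains that coat cellulose and join the cut ends to other xyloglucan chains, so the matrix can be remodelled while the wall expands. Auxin promotes elongation in part by acidifying the wall through plasma membrane proton pumps, and it also raises transcripts of some expansin and XTH genes. XTH18 and XTH19 belong to a set of closely related XTH genes known from roots, and they are neighbours in the genome with 0 annotated genes starting between them.

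The arrays were checked before the members were read. Array medians lay between 7.17 and 7.25 on the log2 scale, and any pair of arrays from 1 group correlated at 0.978 or more over the probe sets, which are not independent of each other. The experiment record of 1 array, IAA 2, names 10 µM B as its treatment, whereas its title names IAA. The signal of GH3.3, an auxin-induced enzyme that conjugates IAA to amino acids, was 13.31 on IAA 2. It was 12.79 to 13.23 on the other IAA arrays, 12.85 to 13.16 in IAA with B and 8.45 to 8.65 in B. GH3.3 thus does not separate IAA from IAA with B. The expansin gene EXPA7 was at least 8.27 on every IAA array, IAA 2 included, and at most 6.2 in IAA with B. The same values were 8.62 and 6.31 for EXPA18, and 7.85 and 5.65 for XTH26. The rule that named EXPA7 and EXPA18 had their smallest adjusted p in IAA with B against IAA, with IAA 2 counted as IAA. XTH26 was named after its values were seen, and its lowest DMSO array, without B, read 4.38. Whether IAA 2 also received B was not tested further. IAA 2 was kept in the group of its title, and the differences that rest on it are also given without it. The annotation used pairs 8730 of the 22746 probe sets with no gene, so a gene without a probe set of its own here may still be on the array unlabelled. By this annotation 3 of 5 root markers and 0 of 14 shoot markers had a probe set of their own.

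The values below are log2 signals as deposited. A difference is the difference of group means from a linear model fitted to all 21 arrays and all probe sets with limma, with its standard error (SE). It passed where the Benjamini-Hochberg adjusted p over all 22746 probe sets was under 0.05. Levels of different genes were not compared, since probe sets differ in how brightly they report a transcript.

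EXPA4, an alpha-expansin, was higher with IAA. Its log2 signal in IAA with A was 9.83, 9.80 and 10.44, in IAA with B 10.63, 10.38 and 10.32, and in IAA 10.39, 10.27, 10.02 and 10.06. Without auxin it was 9.77, 8.97, 9.85 and 9.23 in A, 9.64, 9.84 and 9.83 in B, and 9.37, 9.11, 9.81 and 9.43 in DMSO. All arrays with IAA alone or with B stood above all arrays without IAA, while 2 of the 3 arrays of IAA with A lay within the range of A. By mean, the order ran from IAA with B (10.44 ± 0.16, SD, n = 3) through IAA (10.18 ± 0.18, n = 4), IAA with A (10.02 ± 0.36, n = 3), B (9.77 ± 0.11, n = 3) and A (9.45 ± 0.42, n = 4) to DMSO (9.43 ± 0.29, n = 4), and the ranges of neighbours in that order overlapped at each step.

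EXPA15, the other alpha-expansin, was lower with compound A. It stood at 8.17, 8.26 and 8.60 in IAA with A, at 8.65, 8.53 and 8.43 in IAA with B and at 8.88, 8.97, 8.87 and 8.83 in IAA. In A it was 8.26, 8.04, 8.46 and 8.29, in B 8.64, 8.96 and 8.84, and in DMSO 8.71, 8.54, 9.16 and 8.82. The A arrays all lay below the B and DMSO arrays, and the arrays of IAA with A and of IAA with B all lay below those of IAA. The means ran from IAA (8.89 ± 0.06, SD, n = 4) through B (8.81 ± 0.16, n = 3), DMSO (8.81 ± 0.26, n = 4), IAA with B (8.54 ± 0.11, n = 3) and IAA with A (8.34 ± 0.23, n = 3) to A (8.26 ± 0.17, n = 4), with overlapping ranges between neighbours.

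XTH18 was high in every auxin group and on 1 DMSO array. Its signal was 10.48, 10.22 and 10.48 in IAA with A, 10.09, 10.18 and 9.87 in IAA with B, and 10.70, 10.66, 10.11 and 10.25 in IAA. It was 9.84, 9.64, 9.99 and 9.62 in A, 9.66, 9.21 and 9.11 in B, and 10.31, 9.27, 9.03 and 9.36 in DMSO. DMSO 1, at 10.31, lay inside the range of IAA, and the other DMSO arrays lay below every array of A. In the order of means, IAA (10.43 ± 0.29, SD, n = 4) and IAA with A (10.39 ± 0.15, n = 3) overlapped, and IAA with A did not overlap IAA with B (10.05 ± 0.16, n = 3). The range of IAA with B, down to 9.87, overlapped that of A (9.77 ± 0.18, n = 4), up to 9.99. The lower neighbours, A, DMSO (9.49 ± 0.56, n = 4) and B (9.33 ± 0.30, n = 3), also overlapped.

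XTH19 separated all arrays with auxin from all arrays without it. The auxin groups gave 9.78, 9.55 and 9.71 in IAA with A, 9.84, 9.87 and 9.63 in IAA with B, and 10.09, 10.19, 9.83 and 9.93 in IAA. The groups without auxin gave 8.26, 8.18, 8.24 and 8.77 in A, 8.47, 8.74 and 8.65 in B, and 9.05, 8.48, 8.97 and 8.85 in DMSO. Between the lowest auxin mean, IAA with A at 9.68 ± 0.12 (SD, n = 3), and the highest mean without auxin, DMSO at 8.84 ± 0.25 (n = 4), lay a gap of 0.84. Within each side the neighbours overlapped, IAA (10.01 ± 0.16, n = 4), IAA with B (9.78 ± 0.13, n = 3) and IAA with A above the gap, and DMSO, B (8.62 ± 0.14, n = 3) and A (8.36 ± 0.28, n = 4) below it. The group means of XTH19 spanned 1.64 log2 units against a pooled SD within groups of 0.20. The same values were 1.1 and 0.32 for XTH18, 1.01 and 0.29 for EXPA4, and 0.63 and 0.18 for EXPA15.

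**Figure D1:**
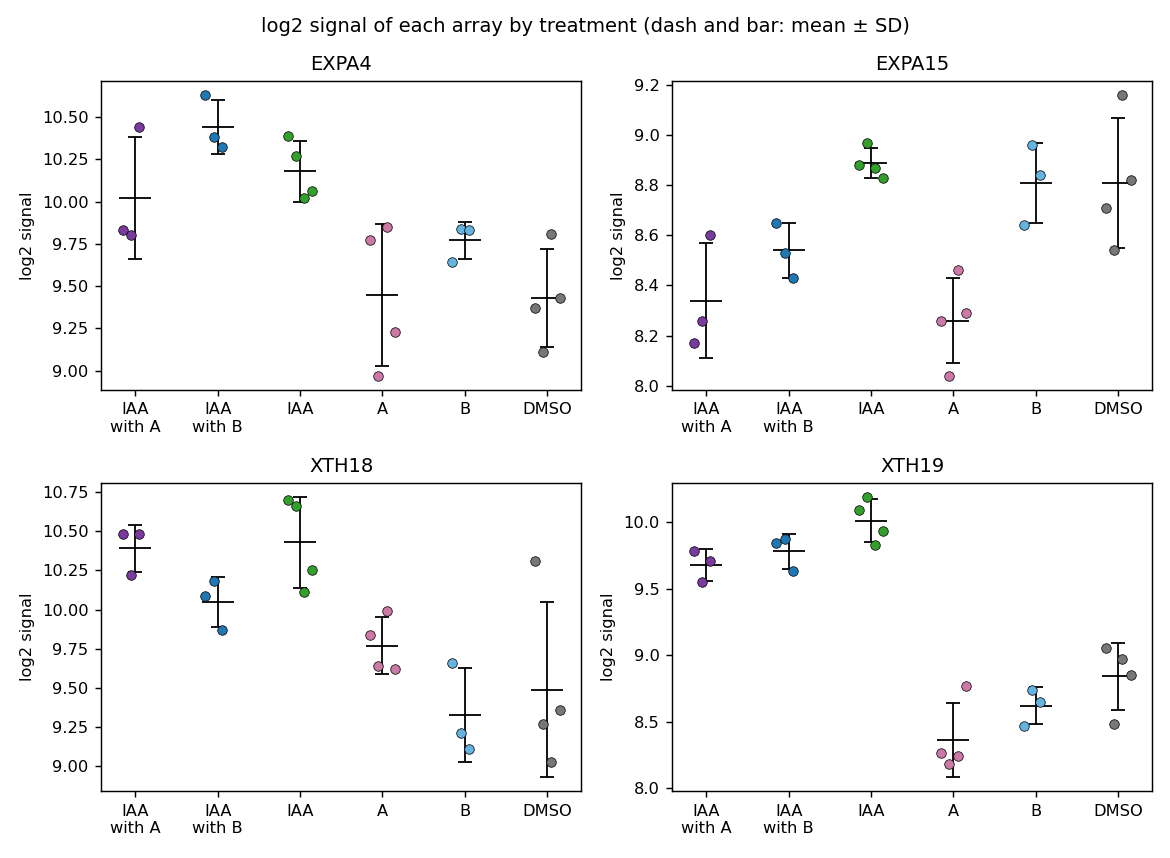
log2 signal (vertical axis) of EXPA4, EXPA15, XTH18 and XTH19 on each of the 21 arrays by treatment (horizontal axis); points are arrays, dashes with bars are the group mean ± SD. XTH19 shows a gap of 0.84 between the means of IAA with A and DMSO, EXPA15 is lowest in A and in IAA with A, and DMSO 1 lies apart from the other DMSO arrays in XTH18.

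Against DMSO, 3 of the 4 members rose with IAA alone and 0 fell, where 1.43% of all probe sets rose (326 of 22746) and 0.479% fell. The members were chosen with earlier results of these data known, so this count is not independent of the values. XTH19 rose by 1.17 ± 0.13 (SE) log2 units, or 2.26-fold, with an adjusted p of 1.26e-05 in limma. XTH18 rose by 0.94 ± 0.21, or 1.91-fold (limma adjusted p = 0.0178), and EXPA4 by 0.76 ± 0.18, or 1.69-fold (0.0352). EXPA15 differed by 0.08 ± 0.12, with a 95% interval from -0.18 to 0.33, and did not pass (0.88). The groups did not overlap for 2 of the 4 members, EXPA4 and XTH19, where 7.59% of all probe sets did not overlap.

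The rise of XTH19 passed under each of 28 alternatives, with differences between 1.06 and 1.24 and adjusted p up to 0.00237. Without IAA 2, whose record names B, XTH19 stood at 1.11 (limma adjusted p = 0.00011), while EXPA4 at 0.73 (0.128) and XTH18 at 0.86 (0.0858) missed the threshold. EXPA4 also lost it without DMSO 1, DMSO 2, DMSO 4, IAA 1 or IAA 4, with differences of 0.65 to 0.80 and adjusted p from 0.0529 to 0.152, and with array weights, at 0.54 (0.0815). XTH18 also lost it with only the IAA and DMSO arrays (0.174), without DMSO 4 and A 2 together (0.0567), and without DMSO 2, DMSO 3, DMSO 4 or IAA 1 (0.0579 to 0.0882). Without DMSO 1 it stood at 1.21 (9.49e-05).

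Whether auxin still raised the members beside a compound was addressed by comparing each combination with its compound alone. In IAA with A against A, 1 of the 4 members rose, where 0.756% of all probe sets rose: XTH19, by 1.32 ± 0.14 log2 units or 2.49-fold (limma adjusted p = 9.4e-06). EXPA4 differed there by 0.57 ± 0.20 and XTH18 by 0.62 ± 0.22, and they missed the threshold (limma adjusted p = 0.331 and 0.369). In IAA with B against B, 1 of the 4 rose, where 1.14% of all probe sets did, and it was XTH19 again, by 1.16 ± 0.15 or 2.23-fold (0.000101). EXPA4 had a difference of 0.67 ± 0.21 (0.21) and XTH18 of 0.72 ± 0.24 (0.255).

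XTH19 passed in both comparisons under all 28 alternatives, with adjusted p up to 0.00362. EXPA4 passed in IAA with B against B when the model held only those arrays (limma adjusted p = 0.0206), and XTH18 passed there without DMSO 1 (0.032), which enters that comparison only through the shared spread. EXPA15 differed by 0.08 ± 0.13 in IAA with A against A and by -0.28 ± 0.14 in IAA with B against B, and neither passed (0.94 and 0.637). The groups did not overlap for XTH18 and XTH19 in the comparison with A, where 8.64% of all probe sets did not overlap, and for EXPA4, XTH18 and XTH19 in the comparison with B, where 14.8% did not.

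The change of the auxin response by a compound was tested directly, as the auxin response with the compound minus the auxin response without it. For A, 0 of the 4 members passed in limma (0 at an unadjusted p under 0.05), where 0.0484% of all probe sets did, and for B also 0 of 4 (0 at an unadjusted p under 0.05), where 0.0132% did. For XTH19 this difference was 0.14 with A (95% interval from -0.26 to 0.55) and -0.01 with B (-0.44 to 0.41). For XTH18 it was -0.32 with A (-0.95 to 0.32) and -0.22 with B (-0.88 to 0.44). EXPA4 gave -0.18 with A (-0.75 to 0.38) and -0.08 with B (-0.67 to 0.50), and EXPA15 gave 0.00 (-0.37 to 0.38) and -0.36 (-0.75 to 0.03). Without IAA 2 the differences with A were 0.20 for XTH19, -0.24 for XTH18, -0.16 for EXPA4 and 0.03 for EXPA15. Those with B were 0.05, -0.14, -0.06 and -0.33 in the same order of genes, and 0 of these 8 passed in limma. With all arrays, the intervals reach -0.95 in XTH18 and -0.75 in EXPA4 for A, and -0.88 and -0.67 for B. The responses of these genes to IAA alone were 0.94 and 0.76, so a loss of all or most of the response lies within the intervals.

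**Figure D2:**
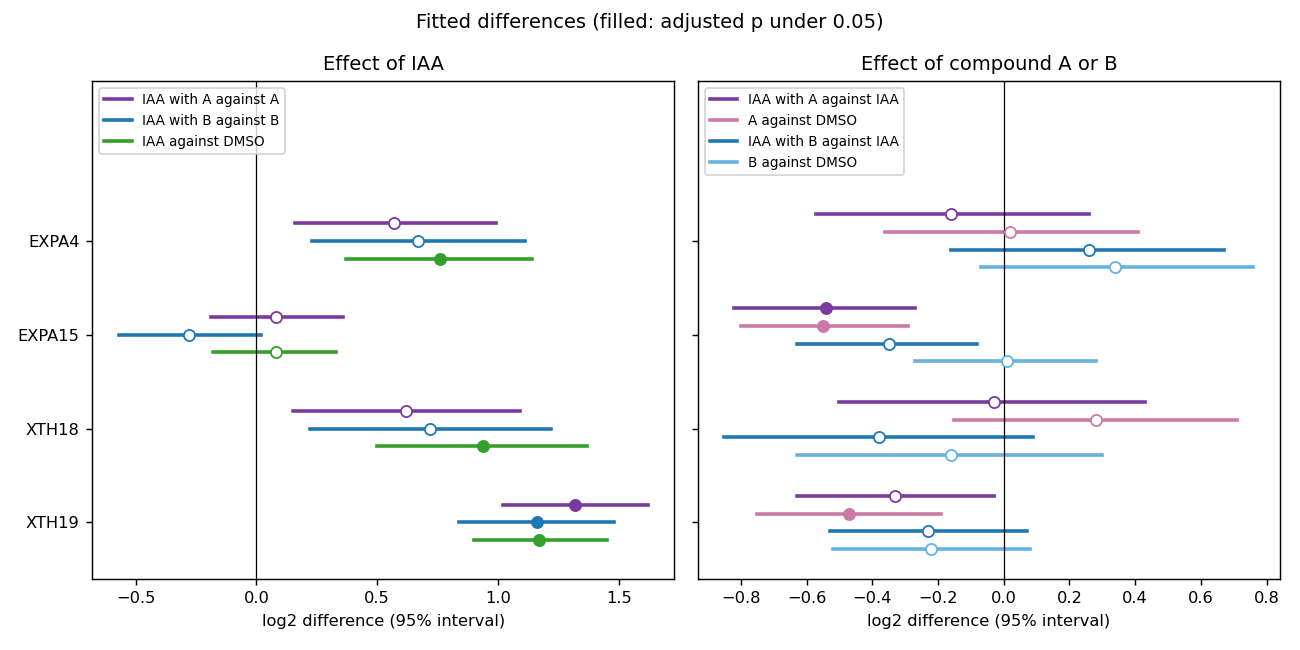
Fitted log2 differences (horizontal axis) with 95% intervals for the 4 genes (vertical axis), the effect of IAA on the left and the effect of A or B on the right; filled points passed at an adjusted p under 0.05. XTH19 passed in all 3 auxin comparisons, at 1.32, 1.16 and 1.17, and EXPA15 passed for A without IAA at -0.55 and with IAA at -0.54.

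The effect of the compounds without auxin was addressed by comparing A and B with DMSO. In A, 2 of the 4 members fell, where 2.94% of all probe sets fell. EXPA15 fell by 0.55 log2 units (SE 0.12) to 68.4% of its level in DMSO (limma adjusted p = 0.00572), and XTH19 fell by 0.47 (SE 0.13) to 72.1% (0.0303). EXPA4 differed by 0.02 ± 0.18 (0.957) and XTH18 by 0.28 ± 0.21 (0.476). The groups did not overlap for EXPA15, where 9.21% of all probe sets did not, and overlapped for the other 3. Both falls lost the threshold when only the A and DMSO arrays were fitted, at an adjusted p of 0.08 for EXPA15 and 0.203 for XTH19. XTH19 also lost it without DMSO 1, DMSO 3, A 1, A 2 or A 3, with adjusted p up to 0.105, and it stood at -0.61 (0.0024) without A 4. XTH18, by contrast, passed as higher in A without DMSO 1, at 0.55 (0.0338).

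In B, 0 of the 4 members passed against DMSO in limma (0 at an unadjusted p under 0.05), where 8.75% of all probe sets passed in either direction. The differences were 0.34 ± 0.20 for EXPA4, 0.01 ± 0.13 for EXPA15, -0.16 ± 0.22 for XTH18 and -0.22 ± 0.14 for XTH19. Their 95% intervals were -0.07 to 0.76, -0.27 to 0.28, -0.63 to 0.30 and -0.52 to 0.08. DMSO 1 set the sign for XTH18, which stood at 0.11 (limma adjusted p = 0.785) without that array. The root-hair expansin EXPA7 fell by 1.96 log2 units (SE 0.22) in the same comparison and EXPA18 fell by 2.50 (SE 0.31), while PYK10, a glucosidase abundant in roots, differed by -0.16 ± 0.07 (0.195).

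Beside auxin, A and B were each compared with IAA alone. EXPA15 fell in IAA with A by 0.54 log2 units (SE 0.13) to 68.7% of its level in IAA (limma adjusted p = 0.012), 1 of the 4 members where 4.3% of all probe sets fell and 4.78% rose. It lost the threshold without IAA with A 1 (-0.46, 0.0836) or IAA with A 2 (-0.50, 0.0618), and kept it without IAA 2 (-0.52, 0.037). XTH19 differed by -0.33 ± 0.14 without overlap of the groups, where 31.3% of all probe sets did not overlap, and it passed when only these arrays were fitted (0.0326) but not in the model of all arrays (0.176). EXPA4 differed by -0.16 ± 0.20 and XTH18 by -0.03 ± 0.22. Without IAA 2 these 3 differences were -0.27 for XTH19 (limma adjusted p = 0.355), -0.13 for EXPA4 (0.803) and 0.04 for XTH18 (0.95).

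In IAA with B against IAA, 0 of the 4 members passed in limma (1, EXPA15, at an unadjusted p under 0.05), where 8.01% of all probe sets passed in either direction. EXPA15 differed by -0.35 ± 0.13 (limma adjusted p = 0.119) without overlap of the groups, where 24.8% of all probe sets did not overlap, and passed with array weights (0.0272) and with only these arrays (0.0142). The other differences were 0.26 ± 0.20 for EXPA4, -0.38 ± 0.22 for XTH18 and -0.23 ± 0.14 for XTH19. Without IAA 2 the differences were -0.32 for EXPA15 (limma adjusted p = 0.23), 0.29 for EXPA4 (0.548), -0.30 for XTH18 (0.568) and -0.17 for XTH19 (0.625). The comparisons of A with DMSO and of IAA with A against IAA share no arrays, although the model pooled their spread, and EXPA15 fell by 0.54 in the one with IAA and by 0.55 in the one without it.

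A and B were then set against each other at the same dose and time. EXPA15 was lower in A than in B by 0.55 log2 units (difference -0.55 ± 0.13, limma adjusted p = 0.0164), 1 of the 4 members where 2.14% of all probe sets were lower. The groups did not overlap, as for 17% of all probe sets, and EXPA15 in A was at 68.1% of its level in B. The difference lost the threshold without B 2 (0.105), without B 3 (0.0764) and with only the A and B arrays (0.0555). The other 3 members did not pass: EXPA4 at -0.32 (95% interval -0.73 to 0.10), XTH18 at 0.44 (-0.02 to 0.91) and XTH19 at -0.25 (-0.55 to 0.05). In IAA with A against IAA with B, 0 of the 4 passed in limma (0 at an unadjusted p under 0.05), where 2.82% of all probe sets passed. The differences there were -0.42 (95% interval -0.86 to 0.03) for EXPA4, -0.19 (-0.49 to 0.10) for EXPA15, 0.35 (-0.15 to 0.85) for XTH18 and -0.10 (-0.42 to 0.22) for XTH19. The groups did not overlap for 1 member, XTH18, where 25.2% of all probe sets did not.

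**Figure D3:**
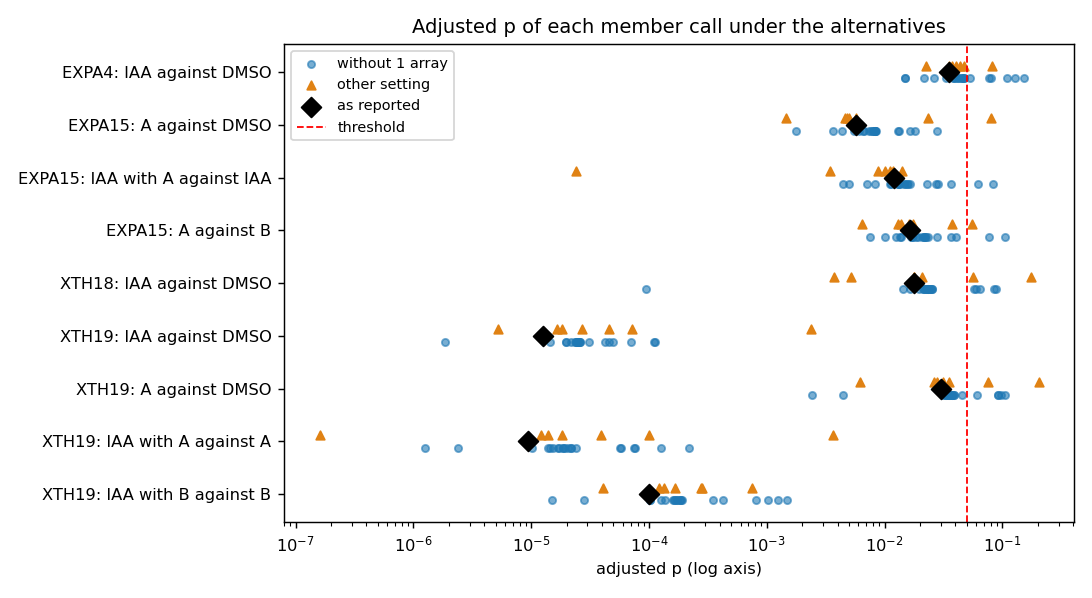
Adjusted p (horizontal log axis) of each member result that passed (vertical axis), as reported (diamonds), without 1 array (circles) and under other settings (triangles), with the threshold dashed. The 3 auxin responses of XTH19 stay at or under 0.00362, and the other results cross the threshold under at least 1 setting.

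Wider families were read through all genes named as expansins or XTH enzymes. The annotation used pairs 19 of 37 expansin genes and 10 of 33 XTH genes with a probe set of their own, the members included. In IAA against DMSO, 2 of 19 expansin genes rose, EXPA4 and EXLA2, an expansin-like A gene, and 1 fell, EXPB1, where 1.43% of all probe sets rose and 0.479% fell. Their median difference was 0.08, against 0.00 over all probe sets. Of the 10 XTH genes, 3 rose, XTH18, XTH19 and XTH33, and 0 fell, with a median of 0.32. Without the members, 1 of 17 expansin genes and 1 of 8 XTH genes rose, with medians of 0.03 and 0.05. Without IAA 2, 1 of the 19 expansin genes rose, EXLA2 at 0.73 (limma adjusted p = 0.0152), and 0 fell, and 1 of the 10 XTH genes rose, XTH19. EXLA2 rose by 0.84 ± 0.15 (limma adjusted p = 0.00229) and XTH33 by 0.60 ± 0.14 (0.0213); both were named after their values were seen, and XTH33 lost the threshold without DMSO 1, DMSO 2 or IAA 2 or with only the arrays compared (up to 0.118). EXPB1, a beta-expansin, fell by 0.70 (SE 0.17, 0.042) in IAA and by 0.94 (SE 0.17, 0.00112) in A. The fall in IAA lost the threshold in 14 of 27 alternatives, among them without IAA 2 (-0.61, 0.189). In IAA with A against A, 1 of the 19 expansin genes rose, EXLA2 at 0.79 (limma adjusted p = 0.0149), and EXPA9 differed by -0.59 (0.009). Of the 10 XTH genes, 1 rose there, XTH19, where 0.756% of all probe sets rose. In IAA with B against B, 1 of the 19 rose, EXLA2 at 0.88 (limma adjusted p = 0.00704), where 1.14% of all probe sets rose. Of the 10 XTH genes, 3 rose there, XTH19, XTH33 at 1.15 (0.000161) and XTH16 at 0.55 (0.0332).

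Other family members responded to the compounds. EXLA3 averaged 5.80 ± 0.06 in IAA with A and 6.49 ± 0.19 in IAA with B (SD, n = 3 each), against 5.14 ± 0.10 in IAA (n = 4). Without auxin it averaged 5.49 ± 0.23 in A (n = 4) and 6.37 ± 0.03 in B (n = 3), against 4.90 ± 0.05 in DMSO (n = 4). EXLA3 passed in all 4 of these comparisons, with rises of 0.66 ± 0.11, 1.35 ± 0.11, 0.60 ± 0.10 and 1.48 ± 0.11 and limma adjusted p of 0.000268, 2.32e-08, 0.000282 and 4.37e-09. Without IAA 2 the rises against IAA were 0.69 (0.000482) with A and 1.39 (1.15e-07) with B. EXLA3 was lower with A than with B, by a difference of -0.88 ± 0.11 without IAA (4.35e-05) and -0.70 ± 0.11 with it (0.00182). EXLA1, of the same subfamily, rose by 1.60 ± 0.20 in B against DMSO (1.63e-05) and by 0.69 ± 0.19 in A against DMSO (0.0246, up to 0.194 under the alternatives).

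By count, 3 expansin genes rose and 2 fell in A against DMSO, and 3 rose and 2 fell in B against DMSO, where 5.45% and 2.94% of all probe sets rose and fell in A, and 3.99% and 4.77% in B. The genes were EXPA9, EXLA1 and EXLA3 against EXPB1 and EXPA15 in A, and EXPA16, EXLA1 and EXLA3 against EXPA7 and EXPA18 in B. Of the XTH genes, 0 rose and 1 fell in A, the member XTH19, while in B 1 rose, XTH20, by 1.02 ± 0.19 (limma adjusted p = 0.00133), and 1 fell, XTH26, by 2.09 (SE 0.60, 0.0332). EXPA9, EXPA16 and XTH26 were named after their values were seen. EXLA3, EXLA1, EXPB1, XTH20, EXPA7 and EXPA18 were named by a rule that took the family members with the smallest adjusted p. They were thus also selected on these results, although EXPA7 and EXPA18 are on the list of root markers as well. The DMSO arrays of XTH26 ranged from 4.38 to 8.38, and its fall in B lost the threshold in 9 of 28 alternatives, with adjusted p up to 0.247.

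With IAA present, 1 expansin gene rose (EXLA3) and 1 fell (EXPA15) in IAA with A against IAA, where 4.78% of all probe sets rose and 4.3% fell, and 3 rose (EXPA16, EXLA1, EXLA3) and 2 fell (EXPA7, EXPA18) in IAA with B against IAA, where 3.67% of all probe sets rose and 4.33% fell. Of the XTH genes, 0 passed in limma in IAA with A against IAA (2 at an unadjusted p under 0.05), while in IAA with B against IAA 1 rose, XTH16, and 1 fell, XTH26. XTH16 rose by 0.44 ± 0.12 (limma adjusted p = 0.0266), lost the threshold without IAA 2, IAA 4, IAA with B 1 or IAA with B 3 (up to 0.132), and was also named after its value was seen. In the tests of a changed auxin response, 0 of the 19 expansin genes passed for A (3 at an unadjusted p under 0.05) and 0 for B (0), and 0 of the 10 XTH genes passed for A (0 at an unadjusted p under 0.05) and 0 for B (3), where 0.0484% of all probe sets passed for A and 0.0132% for B. Without IAA 2 the expansin counts against IAA were the same, and of the XTH genes 0 rose and 1 fell in IAA with B against IAA. EXPA16 lay near the threshold there, at 0.41 (limma adjusted p = 0.0487) with all arrays and 0.46 (0.0486) without IAA 2.

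**Figure D4:**
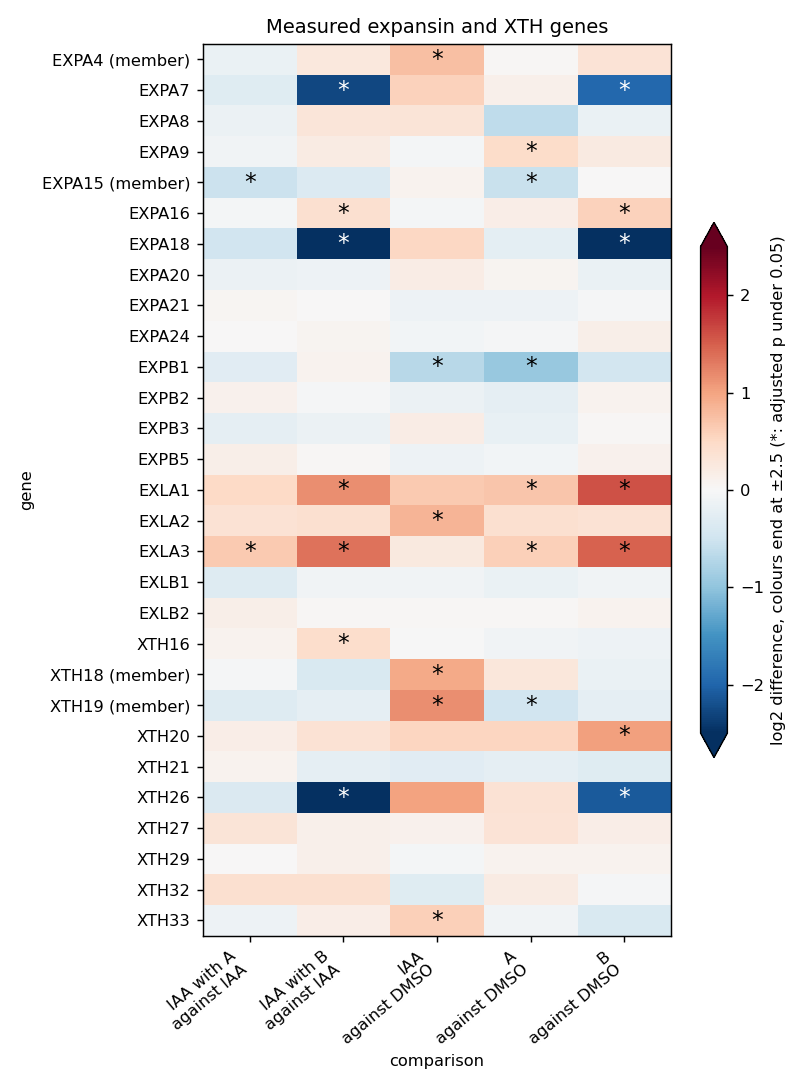
Log2 differences (colour, ending at ±2.5) of the 19 measured expansin and 10 measured XTH genes (rows) in 5 comparisons (columns); stars mark an adjusted p under 0.05. XTH18, XTH19 and EXPA4 are red in IAA against DMSO, and EXLA3 is red and starred in the 4 columns of the compounds. EXPA15 is blue and starred in both columns of A, and blue without a star in IAA with B against IAA (-0.35).

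Few other wall and growth genes had a probe set of their own in the annotation. Of the acid growth list of 29 genes, proton pumps and small auxin-up RNAs, 1 had one, SAUR10, which rose by 3.21 ± 0.21 in IAA with A against A, by 3.65 ± 0.22 in IAA with B against B and by 3.17 ± 0.19 log2 units in IAA against DMSO, with limma adjusted p up to 6.48e-09, and by 2.94 in IAA against DMSO without IAA 2. Of the 15 xyloglucan synthesis and trimming genes found, 4 had one, all of the glucan synthase-like CSLC family. In IAA against DMSO 1 of these 4 rose and 0 fell, where 1.43% of all probe sets rose and 0.479% fell. CSLC04 and CSLC12 are described because they passed. CSLC5 and CSLC6 passed in no comparison, and in IAA against DMSO they differed by 0.27 (limma adjusted p = 0.355) and 0.15 (0.463). CSLC04, named CSLC4 elsewhere and known to make the xyloglucan backbone, rose by 0.57 ± 0.09 in IAA (limma adjusted p = 0.000864), by 0.60 ± 0.09 in A (9.93e-05) and by 0.45 ± 0.10 in B (0.00475) against DMSO. It also rose in IAA with A against IAA, by 0.64 ± 0.10 (0.000137), and in IAA with B against IAA, by 0.35 (0.0304). In IAA with A against A it rose by 0.61 (0.00136), and in IAA with B against B by 0.47 (0.0224). Without IAA 2 its rises were 0.50 (0.00594) in IAA against DMSO, 0.71 (6e-05) in IAA with A against IAA and 0.42 (0.0111) in IAA with B against IAA. CSLC12 fell by 0.64 (SE 0.08) in B against DMSO (1.11e-05). Against IAA its differences were -0.36 (0.00494) in IAA with A and -0.59 (3.25e-05) in IAA with B, and without IAA 2 -0.34 (0.0195) and -0.57 (0.000223). Of 14 cellulose genes 1 had a probe set of its own, COBRA (COB), which guides the orientation of cellulose and fell by 0.22 (SE 0.06) in B against DMSO (limma adjusted p = 0.0231, up to 0.17 without DMSO 3, B 2 or B 3 or with only the arrays compared).

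Markers gave the following beside the members. The root markers EXPA7, EXPA18 and PYK10 had 0 of 3 past the threshold in limma in IAA against DMSO (1 at an unadjusted p under 0.05). Of all probe sets, 1.43% rose and 0.479% fell there. In A against DMSO 0 of 3 passed (0 at an unadjusted p under 0.05), where 5.45% of all probe sets rose and 2.94% fell. With so few markers, 0 of 3 is near these shares. Members passed in both comparisons. In B against DMSO, where 0 members passed, 2 of the 3 markers fell, against 4.77% of all probe sets. PYK10 averaged 13.54 ± 0.06 in IAA and 13.41 ± 0.09 in A (SD, n = 4 each), against 13.51 ± 0.14 in DMSO (n = 4). The part of tissue composition in the members' values was not tested.

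Similar profiles were sought among 2471 probe sets paired with 1 gene whose group means spanned at least 0.5 log2 units. Likeness was the root mean square difference between the 6 group means after each profile was centred on its own mean, so that a small value marks a profile alike in shape and size. For EXPA15 the nearest was AT1G64890, at 0.024 log2 units, with -0.54 in A, 0.04 in B and 0.04 in IAA against DMSO. It was followed by AT3G08000 (0.040), AT4G17100 (0.043), WLIM2a, which encodes an actin-binding LIM domain protein (0.047), and AT3G50400 (0.051). For EXPA4 the nearest were AT1G63420 (0.085), AT3G47510 (0.109), AT5G06930 (0.114), AT1G10750 (0.131) and ndhK, a plastid-encoded NADH dehydrogenase-like subunit (0.133).

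XTH18 was nearest to AT3G54000 (0.113), then to atpH (0.130), AT4G09970 (0.132), AT1G27210 (0.145) and atpF (0.152), and atpH and atpF are plastid genes of the ATP synthase. For XTH19 the nearest were AT5G50335 (0.150), BZIP61, a bZIP transcription factor (0.197), AT5G51670 (0.198), AT3G07000 (0.216) and AT1G02660 (0.227). On the same scale XTH18 and XTH19 differed by 0.36, EXPA4 by 0.33 from XTH18 and by 0.36 from XTH19, and EXPA15 by 0.43 from EXPA4, 0.53 from XTH18 and 0.64 from XTH19. These are descriptions over 6 group means of 21 arrays.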

How the data were processed

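The values deposited by the authors are log2 signals, 1 for every probe set on every array. The method of summary and normalization was not given in the sources at hand, and the values were used unchanged. The array records carry text fields only, with 1 chip lot and no scan data, so no batch could be fitted. Of 22810 probe sets, 64 controls were left out. Of the 22746 tested, 13513 are paired with 1 gene, 503 with several and 8730 with none in the table supplied, and 13508 of the first were matched to the RefSeq gene table (TAIR10.1), which gave the symbols. Sequences of probes, promoters and proteins were not used here, so cross-hybridisation between XTH18 and XTH19 was not tested.

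The 21 arrays were fitted together, each group having its own mean, in limma 3.58.1 in R 4.3.3 (intensity trend, two-sided tests). The members and lists were chosen with earlier results of these data known. Named by rule were the members, up to 6 other family members with the smallest adjusted p, up to 2 passing members of other lists, and 5 neighbours per member. The further family members that passed, and CSLC5 and CSLC6, which did not pass, were named after their values were seen. The fit was tested on simulated data. Alternatives were quantile normalization, the upper 60% of probe sets, only the arrays compared, no trend, array weights, a replicate block, and leaving out each array.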

Additional observations from a re-analysis of the deposited data

Results flagged for a closer look

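XTH19 in A was flagged because 1 of its 4 arrays lay far from the others. A 4 stood at 8.77 and the other A arrays at 8.18 to 8.26. The gap to the nearest array, divided by the range of the group, was 0.871, above Dixon's 95% critical value for 4 arrays. Of 12 member groups of 4 arrays checked this way, 1 was flagged, and chance flags about 1 in 20. Without A 4 the difference of XTH19 in A against DMSO was -0.61 (limma adjusted p = 0.0024), against -0.47 with it (0.0303).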

How the results depend on the processing

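Of 1232 member values recomputed under the alternatives, 1166 kept their direction and their side of the threshold, 27 lost the threshold, 7 gained it and 32 changed sign. XTH19 passed in its 3 auxin comparisons under all 28 alternatives. The cause of the other changes was not tested.

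With only the arrays compared, probe sets past the threshold numbered 212 in IAA against DMSO (435 with all arrays), 881 in A against DMSO (1909), 1080 in B against DMSO (1991), 602 in A against B (1448), 4661 in IAA with A against IAA (2065), 2862 in IAA with B against IAA (1821), and 6 and 0 in the interactions with A and B (11 and 3). Members then numbered 2 in IAA against DMSO (3), 0 in A against DMSO (2), 0 in A against B (1), 2 in IAA with A against IAA (1), 1 in IAA with B against IAA (0) and 2 in IAA with B against B (1). Array weights gave 3678 probe sets in A against DMSO, 6670 in IAA with A against IAA, 3670 in IAA with B against IAA, 683 in IAA with A against A (189), 3310 in A against B, 3518 in IAA with A against IAA with B (642), and 21 and 10 in the interactions with A and B. They gave 2 members in IAA against DMSO (3 without weights), 1 in IAA with B against IAA and 1 in IAA with A against IAA with B (0 in both without weights). The upper 60% of probe sets gave 5 and 0 in the interactions with A and B.

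Leaving out DMSO 4 and A 2 together, chosen after seeing the data, gave 4226 probe sets and 1 member in A against DMSO, 2 members in IAA against DMSO, 1093 probe sets in IAA with A against IAA with B and 5 in the interaction with B. Deviations of same-numbered arrays correlated over 0.1 in 15 of 48 pairs (-0.43 to 0.54), and for all replicates in 0 of 15 pairs of groups. Between A and DMSO the correlations were -0.06, 0.40, 0.24 and 0.54 for replicates 1 to 4. Whether the replicate number marks a pairing there was not tested further. With the replicate block, 19 and 7 probe sets passed in the interactions with A and B, and the members' counts did not move.

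Leaving out 1 array at a time gave probe set counts of 246 to 489 in IAA against DMSO, 1413 to 2992 in A against DMSO, 1373 to 2353 in B against DMSO, 1225 to 2467 in IAA with A against IAA, 1262 to 2178 in IAA with B against IAA, 133 to 207 in IAA with A against A, 219 to 318 in IAA with B against B (281), 485 to 1776 in A against B, 243 to 810 in IAA with A against IAA with B, 5 to 26 in the interaction with A and 1 to 10 in that with B. Member counts were 1 to 3 in IAA against DMSO, 1 to 2 in A against DMSO, 0 to 1 in IAA with A against IAA, 1 to 2 in IAA with B against B and 0 to 1 in A against B.

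Signs turned only for member differences that had not passed. With array weights EXPA15 stood at -0.08 in IAA against DMSO, -0.10 in B against DMSO and -0.06 in IAA with A against A, XTH18 at 0.08 in IAA with A against IAA, and the interactions with B at 0.06 for EXPA4 and 0.02 for XTH19. Quantile normalization gave EXPA4 -0.01 in A against DMSO, and leaving out DMSO 4 and A 2 gave EXPA15 -0.07 in the interaction with A. Without single arrays EXPA15 ranged from -0.01 to 0.20 in IAA against DMSO, -0.08 to 0.12 in B against DMSO, -0.04 to 0.17 in IAA with A against A and -0.12 to 0.09 in the interaction with A. EXPA4 ranged from -0.11 to 0.19 in A against DMSO and -0.21 to 0.02 in the interaction with B. XTH18 ranged from -0.33 to 0.11 in B against DMSO and -0.14 to 0.06 in IAA with A against IAA, and XTH19 from -0.09 to 0.10 in the interaction with B. A batch block was not run, since the records gave no scan batch.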
